A study of Drosophila melanogaster with 8 samples.

Results

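The 40 genes described here encode machinery of the secretory pathway, from the signal recognition particle to the coats and cargo receptors that carry proteins between the endoplasmic reticulum (ER) and the Golgi. All 40 symbols were found in a RefSeq gene table of the dm6 assembly. Open chromatin regions were assigned to a gene where the centre of the region lay within 1000 bp of the gene body. By this rule 36 of the genes held 66 regions, of 13008 regions in the authors' deposited tables, and 4 genes (Sec16, zetaCOP, Srp19 and SrpRbeta) held none.

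Proteins destined for secretion are recognised by the signal recognition particle while they are being made, and are threaded through the Sec61 translocon into the ER, where signal peptidase removes the leader and chaperones fold the chain. COPII coats then bud vesicles towards the Golgi, and COPI coats return ER residents and cargo receptors. The larval salivary gland is a professional secretory organ: its large polyploid cells make the glue proteins that later fix the pupal case, whereas imaginal discs are growing epithelia.

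FAIRE-seq, which recovers nucleosome-poor DNA after crosslinking and phenol extraction, was applied to 8 libraries in 4 groups of 2, and addressed how open chromatin differs between tissues and under RNAi against the ecdysone receptor gene EcR. All groups were female wandering larvae of stage -6 h relative to puparium formation, raised at 25 C, with at least 40 dissected tissues per sample. Wild type (WT) wings, legs and salivary glands carried the genotype +/+; +/+; +/+. The EcR-RNAi wings were yw/yw with Vg-GAL4, UAS-Flp, a Tub>>CD2>>GAL4 flip-out cassette, UAS-GFP and UAS-EcR-RNAi[104], so Flp made under Vg-GAL4 is what switches the tubulin GAL4 cassette on, and the share of cells that switched is not given. No group carried the driver without the RNAi, so stock and transgenes cannot be told apart from the RNAi. FAIRE measures no transcript, so the knockdown itself was not checked here. Of 21 regions within 1000 bp of EcR, the authors' deposited table gave 1 higher in WT wing and 2 higher after RNAi. At an adjusted p under 0.05 and a log2 fold of at least 1 in size, the shares of all regions were 1.24% and 0.789%. By adjusted p alone they were 10.4% and 5.38%. At EcR too, transgenes cannot be told apart from the RNAi.

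For every region the 4 comparison tables hold a log2 fold change, its standard error (SE) and a DESeq2 adjusted p, but no value per library. No SD or n can therefore stand beside a fold, and library depth is unknown. Folds are given as gland over disc, and a call required both an adjusted p under 0.05 and a log2 fold of 1 or more in size. The labels do not say whether paired libraries had separate parents or days, so the p-values reflect the spread between libraries and that spread may be technical. Peak names in the gland list begin with EcRmimic and include a size range, neither of which occurs for WT wing and leg, so stock and fragment-size handling cannot be told apart from tissue. In bulk tissue the share of cells with an open region and the degree of opening per cell cannot be told apart either. The tissue labels were checked against marker genes. Of these, 8 of 21 regions at salivary gland markers were called higher in gland than in wing and 0 lower, and 6 of 25 at wing disc markers, 8 of 24 at leg disc markers, 10 of 14 at tracheal markers and 14 of 28 at myoblast markers were called lower in gland, with 2 myoblast regions called higher. Over all regions 12.7% were called higher in gland than in wing and 21.1% lower, so 6 of 25 at wing disc markers is close to that share. Against leg the same counts were 11 higher at gland markers, and 10, 17, 10 and 11 lower at wing, leg, tracheal and myoblast markers, with 3 myoblast regions higher. The shares of all regions against leg were 13.3% higher in gland and 22.6% lower. Between the discs the markers were mixed: 6 wing marker regions were called higher in wing and 3 higher in leg, and 5 leg marker regions higher in leg and 1 higher in wing. Of all regions 2.04% were called higher in wing and 2.21% higher in leg. Of the fat body and haemocyte markers, 3 and 2 regions were present, 1 of each called lower in gland against either disc and 0 higher. Between WT and EcR-RNAi wing, 2 of 28 myoblast regions (at twi) and 2 of 21 gland marker regions (at Sgs3 and Pgant4) were called higher in WT wing. At these lists 0 were called higher in EcR-RNAi wing, and the other marker lists had 0 calls either way. The shares of all regions were 1.24% and 0.789%. The part of tracheal cells and myoblasts in the results below was not tested.

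Chromatin at the secretory genes leaned towards the gland. In the authors' deposited table of WT wing against gland, 14 of 66 regions (21.2%), at 9 genes, were called higher in gland and 0 were called higher in wing. Over all 13008 regions the balance was the other way, with 12.7% called higher in gland and 21.1% called higher in wing. Without the fold threshold 36 regions at 23 genes passed for gland and 2 for wing, against 28.1% and 40.5% of all regions. The median log2 fold over the 66 regions was 0.60 gland over wing, with 57 above 0 and a range from -0.68 to 2.11, while the median over all regions was -0.18.

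Regions near gene ends in general also leaned towards the gland. Of the secretory regions, 50 (75.8%) lay within 500 bp of an end of a protein-coding gene, against 36.0% of all regions, and the 4683 regions near a gene end had a median log2 fold of 0.36 gland over wing in the authors' deposited table. Among those near gene ends, 12.0% were called higher in gland and 9.59% higher in wing. The set closest to the assignment rule, 6404 regions within 1000 bp of a protein-coding gene no longer than 13864 bp, had a median of 0.37, with 16.2% called higher in gland and 9.17% higher in wing. The 50 secretory regions near an end had a median of 0.64 and the 16 farther away one of 0.45, where all regions away from ends had -0.50. When folds were centred on the median of regions near gene ends, the secretory median stood at 0.24 and the calls were 5 higher in gland and 1 higher in wing. Centred on all regions, it stood at 0.78 with 23 calls for gland.

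**Figure D1:**
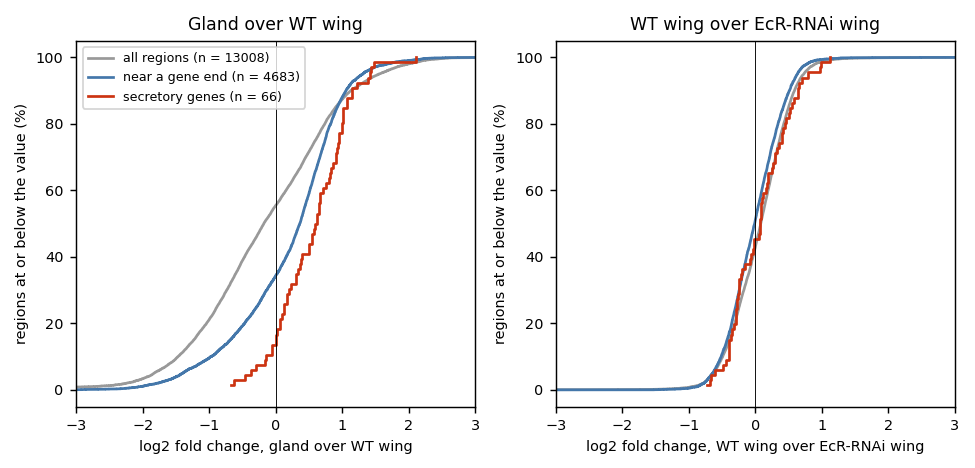
Cumulative share of regions (percent, vertical axis) at or below each log2 fold change (horizontal axis) for all 13008 regions (grey), the 4683 near a gene end (blue) and the 66 at secretory genes (red), for gland over WT wing at left and WT wing over EcR-RNAi wing at right. At left the median moves from -0.18 in all regions to 0.36 near gene ends and 0.60 at secretory genes, and at right the 3 curves lie close together.

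The comparison with leg, which shares the gland libraries, gave similar values side by side. By the authors' deposited table, 13 regions (19.7%) at 8 genes were called higher in gland and 0 higher in leg, against 13.3% and 22.6% of all regions. By adjusted p alone 37 passed for gland and 4 for leg, against 27.9% and 40.5%. The median was 0.52 gland over leg, with 54 of 66 above 0, where all regions had -0.17 and those near gene ends 0.37. Of the 6404 regions within 1000 bp of such shorter genes, 16.6% were called higher in gland than in leg and 10.3% lower, with a median of 0.38. Centred on gene ends, 6 were called for gland and 2 for leg.

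**Figure D2:**
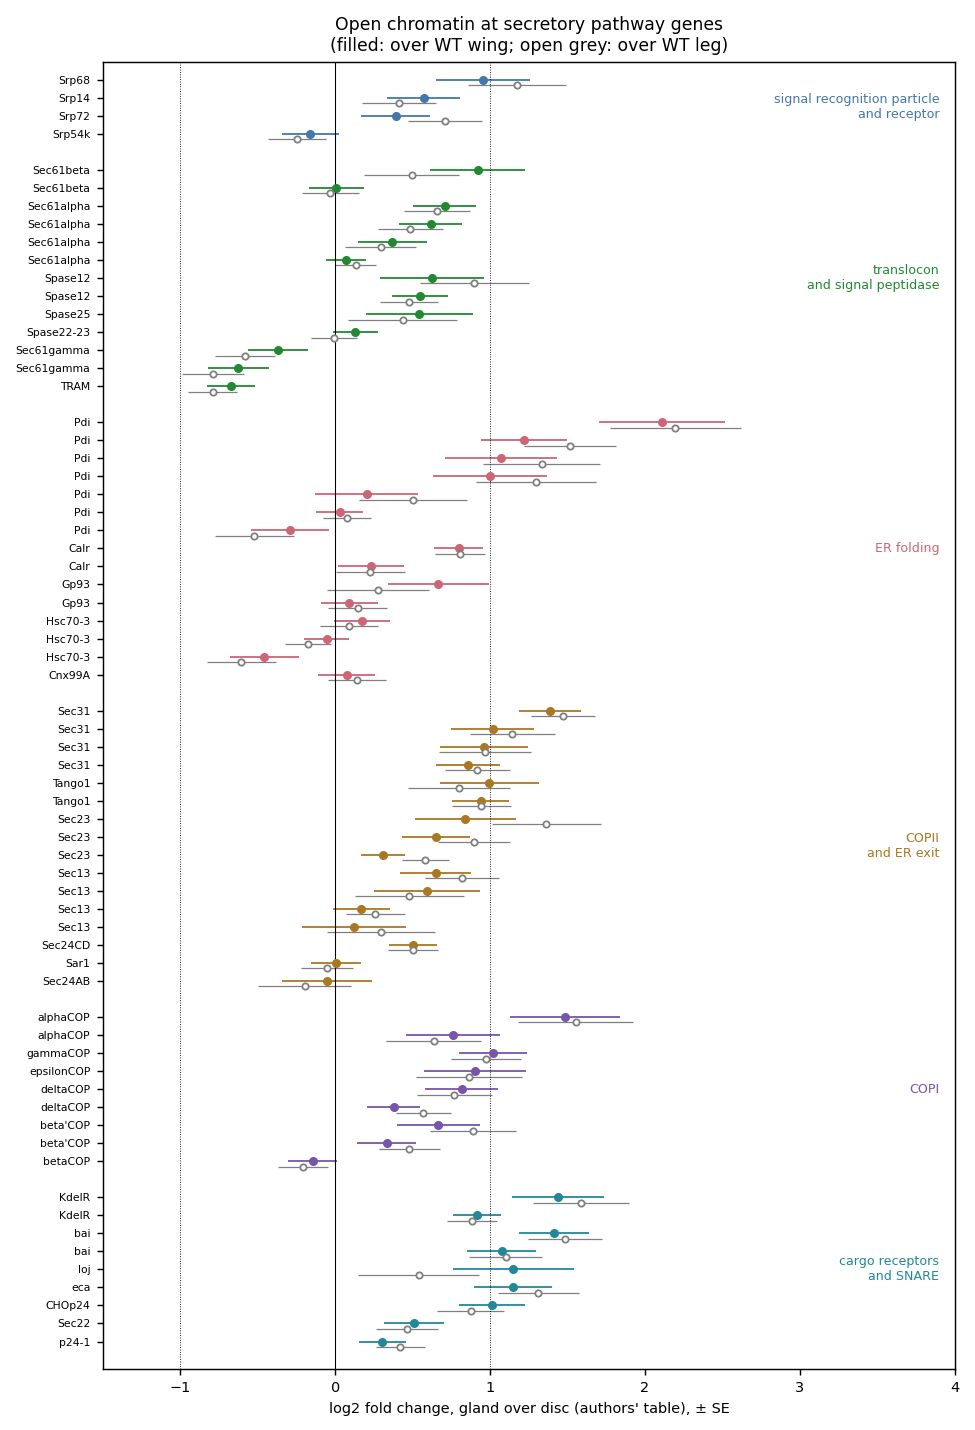
Log2 fold change (horizontal axis) of each of the 66 regions, 1 row per region labelled by gene, as gland over WT wing (filled, coloured by role) and gland over WT leg (open grey), with bars of 1 SE and dotted lines at -1 and 1. All 9 rows of the cargo receptor and SNARE genes lie right of 0 in both comparisons, and the rows farthest left belong to TRAM and Sec61gamma.

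The pathway begins with the signal recognition particle. This complex of RNA and proteins and its receptor contributed 4 regions, at Srp14, Srp54k, Srp68 and Srp72, with a median log2 fold of 0.48 gland over wing and 0.56 over leg, and 1 call. That call was Srp68, an RNA-binding subunit, whose region of 198 bp on chromosome 3L (8974372 to 8974569) stood at 1.17 over leg with an SE of 0.32 and an adjusted p of 0.000656 in the authors' deposited table. Against wing it stood at 0.95 with an SE of 0.30 and an adjusted p of 0.00359, short of the fold threshold. Its partner Srp72 stood at 0.39 over wing and 0.71 over leg, and Srp14, of the domain that slows elongation, at 0.57 and 0.41. Srp54k, the GTPase that binds the signal peptide, was the 1 region of the 4 below 0, at -0.16 and -0.25, with adjusted p of 0.44 and 0.24.

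No region of the 13 at translocon and signal peptidase genes was called in either comparison with gland. Their median was 0.37 over wing and 0.29 over leg, and after centring on gene ends it was 0.00 over wing and changed sign to -0.07 over leg. Sec61alpha, which forms the channel, had 4 regions between 0.07 and 0.71 over wing, of which those at 0.71 and 0.62 passed by adjusted p alone (0.00144 and 0.00586) in the authors' deposited table. The region with the highest fold of the group over wing was at Sec61beta, a small channel subunit, at 0.92 over wing (SE 0.31, adjusted p 0.00582) and 0.49 over leg (SE 0.31, adjusted p 0.153), while its second region stood at 0.01 and -0.03. The signal peptidase subunit Spase12 had regions at 0.63 and 0.55 over wing, the first of which was the highest of the group over leg at 0.90, Spase25 stood at 0.54 and Spase22-23 at 0.13.

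The remaining subunits of this step went the other way. TRAM, a membrane protein that helps nascent chains into the channel, held the region with the highest mean normalized count of all secretory regions, 499.1, and stood at -0.68 over wing (SE 0.15, adjusted p 4.4e-05) and -0.79 over leg (SE 0.16, adjusted p 1.7e-06) in the authors' deposited tables. The region at the end of Sec61gamma, the third channel subunit, stood at -0.63 over wing (SE 0.20, adjusted p 0.00312) and -0.79 over leg (adjusted p 0.00021). A second Sec61gamma region stood at -0.37 and -0.58, with adjusted p of 0.0806 and 0.0056. These folds were below the threshold of 1 in size, so none was called.

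Among the ER folding genes the calls came from Pdi alone. This gene encodes protein disulfide isomerase, which makes and exchanges disulfide bonds, and it held 7 regions, the most of any of the 40 genes; 4 were called higher in gland than in wing and the same 4 higher than in leg. The strongest lay 511.5 bp outside the gene on chromosome 3L (15143235 to 15143468), at 2.11 over wing (SE 0.41, adjusted p 3.33e-06) and 2.19 over leg (SE 0.42, adjusted p 5.38e-06) in the authors' deposited tables. Its mean normalized count of 23.4 was the lowest of all 66 regions, and the protein-coding gene CG32147 also lies within 1000 bp of it. The region inside the gene at 15140330 to 15140632 had no other gene within reach and stood at 1.22 over wing (SE 0.28, adjusted p 5.01e-05) and 1.52 over leg. The other called regions stood at 1.07 and 1.00 over wing. In contrast, the broadest Pdi region, 1129 bp with a count of 276.1, stood at 0.03 over wing and 0.08 over leg, with adjusted p of 0.88 and 0.68. Narrow regions of 165 and 310 bp inside the gene were not called either, at 0.20 and -0.29 over wing and 0.50 and -0.52 over leg.

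No region of the other folding genes was called. Calr, a lectin chaperone, had 1 region of 1133 bp that passed by adjusted p alone at 0.80 over both wing (SE 0.16, adjusted p 1.62e-06) and leg (SE 0.16, adjusted p 3.18e-06) in the authors' deposited tables. The membrane-bound lectin chaperone Cnx99A stood at 0.07 and 0.14, and the ER Hsp90 gene Gp93 at 0.66 and 0.09 over wing. Hsc70-3, which encodes the ER chaperone BiP, had 3 regions at 0.17, -0.06 and -0.46 over wing, and the last stood at -0.61 over leg with an adjusted p of 0.0128. The group median of 0.20 over wing and 0.23 over leg changed sign to -0.16 and -0.14 after centring on gene ends.

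**Figure D3:**
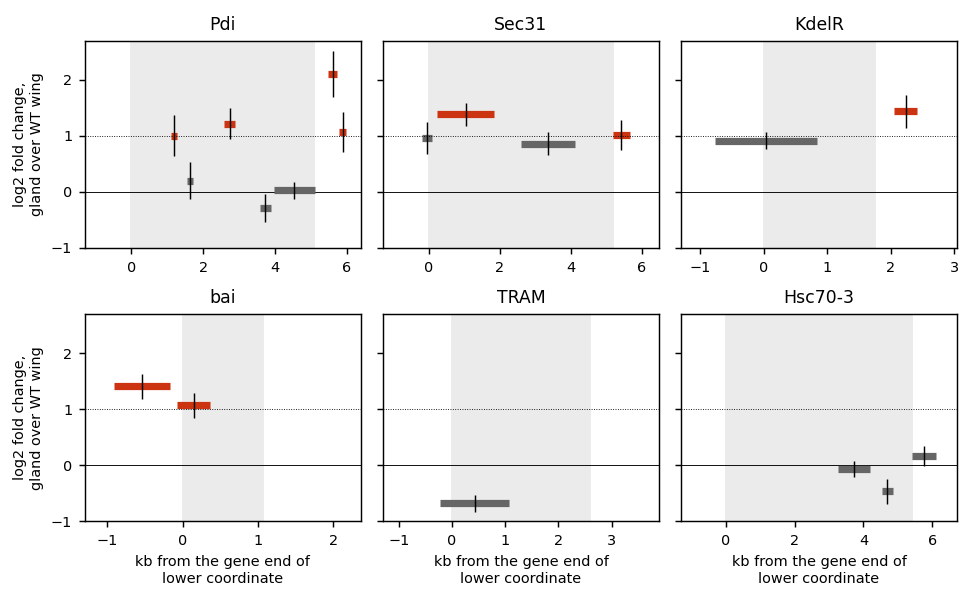
Log2 fold change of gland over WT wing (vertical axis, bars of 1 SE) for each region drawn to its width along 6 genes, with distance in kb from the gene end of lower coordinate (horizontal axis), the gene body shaded, and called regions in red. Of the Pdi regions 4 are red and the broad one lies at 0.03, Sec31 has a called region of 1623 bp at 1.39 inside the gene, and the TRAM region lies at -0.68.

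COPII genes, which bud vesicles from the ER, had 16 regions with a median of 0.65 over wing and 0.81 over leg. The calls over wing were both at Sec31, which with Sec13 forms the outer cage. Its region of 1623 bp inside the gene, the widest of the 66, stood at 1.39 over wing (SE 0.20, adjusted p 7.68e-11) and 1.47 over leg (SE 0.21, adjusted p 1.77e-11) in the authors' deposited tables. With a mean normalized count of 211.3 it was the 1 called secretory region at or above the median count of all regions, and no other gene lay within 1000 bp. The second called Sec31 region stood at 1.02 over wing and 1.14 over leg, near the protein-coding gene ana2. The remaining pair stood at 0.96 and 0.86 over wing, with adjusted p of 0.0018 and 0.000116, so all 4 regions of the gene passed by adjusted p.

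Sec13, whose product also serves the nuclear pore, had regions from 0.12 to 0.65 over wing, with the highest and the lowest beside the ribosomal protein gene RpS3. Sec23, the inner coat subunit that activates the GTPase Sar1, was called over leg, at 1.36 (SE 0.35, adjusted p 0.000494), and stood at 0.84 over wing (SE 0.33, adjusted p 0.0205) in the authors' deposited tables; the difference between these values is the wing over leg fold of 0.52, with an SE of 0.37, an unadjusted DESeq2 p of 0.154 and no adjusted p listed. Tango1, which loads bulky cargo at ER exit sites, stood just under the threshold at 0.99 and 0.94 over wing (SE 0.32 and 0.18, adjusted p 0.00478 and 1.49e-06). Of the cargo-binding subunits, Sec24CD stood at 0.50 over each disc and Sec24AB at -0.05 over wing. Sar1 itself stood at 0.01 over wing and -0.05 over leg.

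The coatomer of COPI coats had 9 regions at 6 genes with a median of 0.76 over wing and 0.77 over leg, and 7 of the 9 passed by adjusted p alone in each authors' deposited table. alphaCOP, of the outer coat layer, was called at a region of 198 bp outside the gene, at 1.48 over wing (SE 0.35, adjusted p 0.000121) and 1.55 over leg (SE 0.37, adjusted p 0.000153), with a count of 30.6 and the genes CG13919 and CG17249 within reach. A neighbouring region of alphaCOP with a count of 73.5 stood at 0.76 and 0.63. gammaCOP, an adaptor-like subunit, was called at its gene end at 1.02 over wing (SE 0.22, adjusted p 1.51e-05) and stood just under the threshold at 0.97 over leg (SE 0.23, adjusted p 7.8e-05). No other protein-coding gene lay within 1000 bp of that region. epsilonCOP stood at 0.90 over wing, deltaCOP at 0.82 and 0.38, and beta'COP at 0.67 and 0.33. betaCOP was the exception at -0.15 over wing and -0.21 over leg, with adjusted p of 0.42 and 0.25.

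The cargo receptor and SNARE genes held the most calls of any role over wing, and over leg as many as the ER folding genes. Of 9 regions at 7 genes, the authors' deposited tables called 6 higher in gland than in wing and 4 higher than in leg. All 9 were above 0, and the medians were 1.07 and 0.88. Each called region also had another protein-coding gene within 1000 bp, so it may belong to a neighbour. These neighbours were CG5188 and Bug22 at KdelR, Ythdf, CG31115 and 5PtaseI at bai, CG9444 at eca, rb at CHOp24 and CG10467 at loj. KdelR, the receptor that returns escaped ER residents, was called 489.5 bp outside the gene at 1.44 over wing (SE 0.30, adjusted p 6.64e-06) and 1.58 over leg (SE 0.31, adjusted p 2.66e-06). Its broad region of 1612 bp with a count of 250.0 stood at 0.91 over wing (SE 0.16, adjusted p 2.83e-08) and 0.88 over leg, below the fold threshold but with a smaller adjusted p than the called one.

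The p24 family of cargo receptors, which cycle between ER and Golgi, had members called at bai, eca, CHOp24 and loj. The gene bai was called at both of its regions, at 1.41 over wing (SE 0.23, adjusted p 3.42e-09) and 1.48 over leg for the stronger, and 1.07 and 1.10 for the other, in the authors' deposited tables. The gene eca was called at 1.15 over wing (SE 0.25, adjusted p 1.94e-05) and 1.31 over leg (SE 0.26, adjusted p 3.61e-06). CHOp24, the only called secretory region on the X chromosome, stood at 1.01 over wing (SE 0.21, adjusted p 7.12e-06) and 0.88 over leg. The gene loj was called over wing, at 1.15 (SE 0.39, adjusted p 0.00739), and stood at 0.54 over leg with an adjusted p of 0.231; its wing over leg fold was -0.61 with an adjusted p of 0.57. The family member p24-1 was not called, at 0.30 over wing and 0.42 over leg, and neither was Sec22, a SNARE of ER and Golgi vesicles, at 0.51 and 0.47.

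Many of the called regions had a low count. Of the 14 called over wing, 8 had a mean normalized count under the lower quartile of all regions, 70.8, and 1 was at or above the median, whereas 22 of the 66 secretory regions (33.3%) lay under that quartile. Over all regions the same pattern held, with a median count of 44.4 in regions called higher in gland and 182.4 in those called higher in wing, by the authors' deposited table. The count is a mean over all 8 libraries, of which 2 were gland, so a region open mainly in gland tends to a low mean. A filter on it can therefore remove regions higher in gland more readily than others. With regions under the lower quartile left out, 6 were called over wing and 4 over leg. A neighbouring protein-coding gene lay within 1000 bp of 49 of the 66 regions and of 10 of the 14 called, so the region may belong to either gene; among the 17 regions with no other such gene 4 were called over each disc, and their median was 0.51 over wing.

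**Figure D4:**
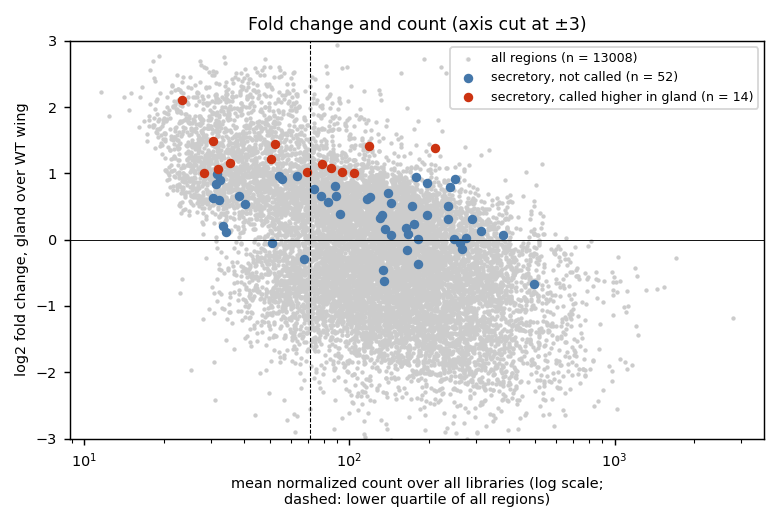
Log2 fold change of gland over WT wing (vertical axis, cut at -3 and 3) against mean normalized count over all libraries (horizontal log axis), for all 13008 regions (grey), the 52 secretory regions not called (blue) and the 14 called (red), with a dashed line at the lower quartile of 70.8. Called secretory regions lie mostly at low count, and the Sec31 region at 211.3 is the one far to the right.

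Chromosome X held 10 of the 40 genes and 13 of the 66 regions, and many of the secretory regions that leaned to the discs were there. Of the 9 regions below 0 over wing 6 were on X, and of 12 below 0 over leg again 6, and both regions passing for wing by adjusted p alone, and all 4 passing for leg, were X-linked. The median gland over wing was 0.17 for the 13 X regions and 0.66 for the 53 autosomal ones in the authors' deposited table. Over all regions X and autosomes had the same median of -0.18. Hsc70-3, Sec61gamma and TRAM held 6 of the 13 X regions, and the contrast between X and autosomes was not tested.

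The assignment window of 1000 bp has members close to its edge. Just inside lay Spase22-23 at 946.5 bp with 0.13 gland over wing, Sec13 at 836.5 bp with 0.12 and Sec23 at 823 bp with 0.31; just outside lay betaCOP at 1016 bp with 1.04, Gp93 at 1035 bp with 0.49 and Sec24AB at 1039.5 bp with 0.66, all from the authors' deposited table.

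Peaks called on merged libraries, which have no replicates, were present at nearly all of these genes in every tissue. At least 1 peak lay within 1000 bp of 39 of the 40 genes in gland (97.5%), 36 in WT wing (90.0%), 35 in WT leg (87.5%) and 35 in EcR-RNAi wing (87.5%). Among all 12489 protein-coding genes no longer than the longest of the 40 (13864 bp) the shares were 59.0%, 66.7%, 65.4% and 55.0%. The genes had 104, 108, 92 and 64 peaks, in lists of 16840, 29283, 26754 and 18464.

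The strongest peaks of the secretory genes ranked high in every list, gland and discs alike. By the authors' fold enrichment over local background, the strongest peak of each gene had a median percentile of 86.0 within the gland list, where genes no longer than 13864 bp had 77.2. The corresponding percentiles were 80.9 and 64.4 in WT wing, 75.6 and 63.1 in WT leg, and 78.2 and 65.3 in EcR-RNAi wing. In gland 16 of the 39 genes with a peak (41.0%) had their strongest among the highest 10% of the list, against 23.5% of the short genes with a peak. In WT wing 8 genes did so (22.2%, against 16.3%), in WT leg 8 (22.9%, against 14.99%) and in EcR-RNAi wing 5 (14.3%, against 12.7%). Enrichments were highest at TRAM, with a fold of 7.79 in gland, 11.1 in WT wing and 13.5 in WT leg, and the next in gland were Sec61alpha at 7.69, Spase12 at 7.41 and Gp93 at 7.39. betaCOP had 10.1 in WT wing, 12.0 in WT leg and 5.54 in gland. Enrichments are relative to each list's own background, so values of different lists cannot be set against each other. The tested region of betaCOP was not called between gland and either disc.

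The peak lists also placed open chromatin at the genes without a tested region. Sec16, the scaffold of ER exit sites, had 5 gland peaks, the strongest with a fold enrichment of 5.02. It also had 5 peaks in WT leg, 2 in WT wing and 1 in EcR-RNAi wing. zetaCOP and SrpRbeta, the latter the membrane anchor of the signal recognition particle receptor, had 1 peak each in gland, with folds of 5.13 and 2.16, and none in the other 3 lists. The zetaCOP peak was at percentile 78.0 of the gland list, and the SrpRbeta peak, at percentile 0.261, was among its weakest. Srp19 had peaks in all 4 lists, with a best fold of 3.99 in gland. Conversely, eca had a called region in the tables and no peak within 1000 bp in any list. The other genes without a peak were CHOp24 in WT wing, bai and loj in WT leg, and epsilonCOP and loj in EcR-RNAi wing, and in these 3 lists zetaCOP and SrpRbeta as well.

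No secretory region passed the test between wing and leg discs in the authors' deposited table. Of the 59 regions with an adjusted p, 0 were called in either direction, against 2.04% of all regions higher in wing and 2.21% higher in leg, and 0 passed by adjusted p alone, against 5.05% and 5.25%. Near gene ends such calls were rare in general, at 0.267% and 0.357%, and 0.780% and 0.847% by adjusted p alone, so a count of 0 is close to that background. None of the 66 reached an unadjusted DESeq2 p under 0.05. The folds ran from -0.61 at loj to 0.52 at Sec23 with a median of 0.00 and a median SE of 0.24, and the lowest adjusted p was 0.43.

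Few secretory regions passed the test between WT and EcR-RNAi wings, and calls were rare among all regions too. By the authors' deposited table, 64 regions had an adjusted p and 1 (1.56%) was called higher in WT wing. This compares with 1.24% of all regions and 0.592% of those near gene ends. In the other direction 0 were called higher in EcR-RNAi wing, against 0.789% and 0.548%, so counts of 1 and 0 are close to both backgrounds. At an unadjusted DESeq2 p under 0.05, 15 of the 66 were higher in WT wing and 6 higher in EcR-RNAi wing. The share of all regions at that threshold was not computed, so these counts cannot be read as a lean towards WT wing. The called region was at Pdi (chromosome 3L, 15139285 to 15139449), at 1.12 WT over EcR-RNAi with an SE of 0.36, an adjusted p of 0.0241 and a count of 33.4. It was not one of the 4 Pdi regions called higher in gland. The median over the 66 regions was 0.07, where all regions had 0.08, and it fell to -0.02 once folds were centred on all regions.

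By adjusted p alone 5 regions (7.81%) at 4 genes were higher in WT wing, against 10.4% of all regions and 8.42% near gene ends. In the other direction 1 (1.56%) was higher in EcR-RNAi wing, against 5.38% and 4.34%. The lowest adjusted p was at betaCOP, 1.9e-06, with a log2 fold of 0.97 WT over EcR-RNAi (SE 0.17) in the authors' deposited table. TRAM stood at 0.66 (SE 0.16, adjusted p 0.00116) and both Sec61gamma regions at 0.64 (SE 0.20, adjusted p 0.0152 and 0.0168). These 4 regions were all on X, which is yw/yw in the EcR-RNAi wings and +/+ in WT. The medians on X were 0.17 for secretory regions and 0.13 for all regions, and on autosomes 0.06 and 0.07. TRAM and Sec61gamma were also the genes higher in wing than in gland by adjusted p alone, and both comparisons use the WT wing libraries. The region higher in EcR-RNAi wing was the stronger one of bai, at -0.73 WT over EcR-RNAi (SE 0.23, adjusted p 0.0203), which was also called higher in gland than in WT wing, again a comparison with the same wing libraries.

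**Figure D5:**
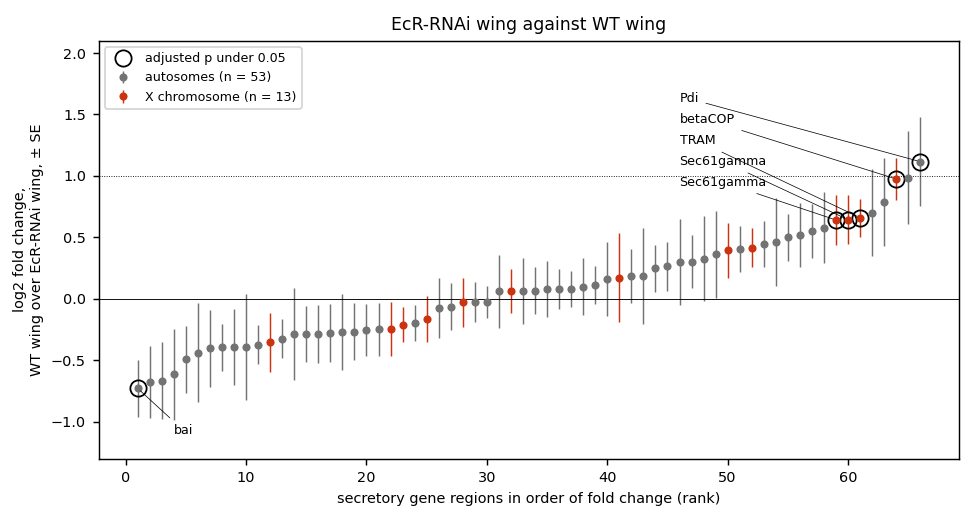
Log2 fold change of WT wing over EcR-RNAi wing (vertical axis, bars of 1 SE) for the 66 secretory regions in order of fold change (horizontal axis), with the 13 X-linked regions in red, the 53 autosomal ones in grey and rings around those with an adjusted p under 0.05. The ringed regions are bai at -0.73 and, at the other end, both Sec61gamma regions, TRAM, betaCOP and Pdi between 0.64 and 1.12.

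By role, the COPI and cargo receptor regions had medians of -0.27 and -0.29 WT over EcR-RNAi, with 4 and 2 of 9 above 0, and the translocon regions 0.17, with 8 of 13 above 0, in the authors' deposited table. The signal recognition particle, ER folding and COPII regions had medians of 0.01, 0.11 and 0.12, the first changing sign when centred on all regions.

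Other genes of the pathway, taken from 5 lists of 125 symbols, also leaned to the gland. Of these, 110 genes were used and 84 held 150 regions, of which 39 (26.0%) were called higher in gland than in wing and 6 (4.0%) lower, with a median of 0.63, in the authors' deposited table. For comparison, 12.7% of all regions were called higher in gland and 21.1% lower, and 16.2% and 9.17% of those within 1000 bp of a gene no longer than 13864 bp. Against leg 34 (22.7%) were called higher and 6 (4.0%) lower, with a median of 0.62. Of all regions 13.3% were called higher in gland than in leg and 22.6% lower. Calls over wing were 4 higher and 1 lower of 19 regions for translocon and N-glycan partners, 12 and 1 of 40 for ER folding and quality control, and 2 and 0 of 17 for the unfolded protein response and secretory regulators. They were 10 and 1 of 39 for Golgi, tether and SNARE genes and 11 and 3 of 35 for exocytosis and granule trafficking. The 2 of 17 for the unfolded protein response list is close to the 12.7% of all regions. Over leg the counts were 2 and 1, 12 and 2, 3 and 0, 10 and 1, and 7 and 2 in the same order. Wing against leg gave 0 calls in these lists, against 2.04% and 2.21% of all regions and 0.267% and 0.357% of those near gene ends. By adjusted p alone 0 and 3 passed, against 5.05% and 5.25% of all regions. WT against EcR-RNAi wing gave 1 call (0.667%), higher in WT wing, against 1.24% of all regions and 0.592% near gene ends. That call was at SrpRalpha, the other subunit of the signal recognition particle receptor, at 1.13 (SE 0.37, adjusted p 0.0244).

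Among called regions with at least the median count, Sec63, a translocon partner of BiP, stood at 1.27 gland over wing and 1.19 over leg at 1 region, Ostgamma, an oligosaccharyltransferase subunit, at 1.15 over wing, and Rab7, a late endosomal GTPase, at 1.04 and 1.06, in the authors' deposited tables. Lower in gland were regions at AP-1sigma, a clathrin adaptor subunit, at -1.90 and -2.11, TER94, the ATPase that extracts misfolded proteins from the ER, at -1.40 and -1.71, the exocyst gene Sec3 at -1.37 and -1.54, and Slh, a Sec1-like trafficking regulator, at -1.36 and -1.84. Sil1, the exchange factor of BiP, was called lower against leg at -1.34. Sec63 and AP-1sigma each had a further region of lower count called the opposite way, at -1.12 over wing and -1.20 over leg for Sec63 and at 1.37 and 1.54 for AP-1sigma. Below the median count, and named after the values were seen, CrebA, a bZIP activator of secretory genes that also stood on the list of gland markers, had regions at 2.69 and 2.32 over wing, Herp, of ER quality control, one at 2.06 and Ero1L, the oxidase that recharges protein disulfide isomerase, one at 1.95.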

How the data were processed

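FAIRE-seq of 8 libraries in 4 groups of 2 was used as deposited. The submitters' processing notes name MACS2 2.1.2, Bowtie2 2.3.4.1, bedtools 2.26, Picard 2.2.4, SAMtools 1.9, R 3.5.2 and DESeq2, and build dm6; no settings are given in these sources. The authors deposited 1 peak list per group, called on merged libraries, with a score, a fold enrichment (a ratio to local background) and −log10 q-values. The authors deposited 4 comparison tables that give, per region, a p-value raw and adjusted, a log2 fold change, its SE, a test statistic (a score) and a mean normalized count, which is a signal. The sign of each fold followed the table's own category column. The fold over its SE departed from the deposited statistic by more than 5% at 1 secretory region against wing and 2 against leg, and calls therefore rest on the adjusted p.

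With Python 3.11.15, pandas 2.3.3 and NumPy 2.4.6, regions and peaks were assigned to genes by centre within 1000 bp of the gene body, in a RefSeq table without strand or exons, so either gene end counts as an end. Coordinates are as in the tables. No fit was repeated, because the tables hold no value per library. Centred folds had p recomputed from fold and SE and adjusted over all regions. This step was tested on simulated data with few changed regions, drawn up or down with equal odds. Calls between disc and gland were many and unequal, so that test cannot say which centre is right. Alternatives were the fold and p thresholds, the window, a count filter and the centring. Every gene with a called region is named, with those of highest and lowest fold; of the pathway lists, up to 5 called genes per direction with at least the median count. Genes and lists were chosen with earlier results of these data known. Promoter sequence and motifs were not analysed here.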

Additional observations from a re-analysis of the deposited data

How the results depend on the processing

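Of 74 alternatives, 47 kept their count within 1.5 times of the reported one and 27 did not; the cause was not tested unless the alternative only removes or adds regions. For regions higher in gland than WT wing (14 as reported) the count was 36 with no fold threshold, 23 centred on all regions, 5 centred on regions near a gene end, 6 at or above the lower quartile of counts, and 7 inside the gene body. For gland over WT leg (13) it was 37, 23, 6, 4 and 5, and 21 with a window of 2000 bp. Chosen after seeing the data, restriction to regions with no other protein-coding gene gave 4 and 4, and to at least median width 4 and 3. Regions higher in wing than gland (0) numbered 2 with no fold threshold and 1 centred near gene ends, and those higher in leg (0) 4 and 2. For WT over EcR-RNAi wing (1) the count was 5 with no fold threshold, 0 at an adjusted p under 0.01 and 0 with the count filter, and for EcR-RNAi over WT wing (0) it was 1 with no fold threshold. Genes with a peak fell to 22 in gland, 23 in WT wing and 21 in WT leg at a −log10 q of at least 10, and to 19 in EcR-RNAi wing inside the gene body. No paired analysis was possible because the tables hold no value per library; for the same reason no replicate could be left out. The SE, with a median of 0.22 in the comparison of wing and gland, limits what could be resolved.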
